A study of Mus musculus with 6 samples.

Results

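The genes of the angiopoietin and Tie receptor system were examined in the whole-transcriptome single-cell data of all 6 libraries. They were taken by gene symbol and are the ligands Angpt1 and Angpt2, the receptors Tek (the gene of TIE2) and Tie1, and the receptor-type phosphatase Ptprb (the gene of VE-PTP), 5 of 56884 genes in the files. All 5 were found once in each library.

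Angiopoietin-1, made by mural and other mesenchymal cells, activates the receptor tyrosine kinase TIE2 on endothelial cells, which promotes endothelial survival, quiescence and tight cell contacts through PI3K and AKT. Angiopoietin-2, stored in endothelial granules and released when vessels are remodelled, acts as a context-dependent antagonist or weak agonist of the same receptor. TIE1 binds no angiopoietin by itself but forms complexes with TIE2 and modulates its output, and VE-PTP removes phosphate from TIE2 and associates with VE-cadherin. The ligand-receptor pair is a standard example of signalling between pericytes and endothelium, the cell layers that the study separates by deleting a gene in pericytes.

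The cells came from lungs at postnatal day (P) 21 and from cerebral cortex at P12, and each library held pooled cells of 2 littermates of 1 genotype. The lung libraries were Bdnf lox/lox (Bdnf control), Bdnf iPCKO, Hgf lox/lox (Hgf control) and Hgf iPCKO, and the cortex libraries were Nodal lox/lox (Nodal control) and Nodal iPCKO. The iPCKO mice carried the same homozygous floxed alleles and, in addition, the Pdgfrb(BAC)-CreERT2 transgene, which drives recombination from Pdgfrb regulatory sequences in pericytes and other mural cells. Recombination had been induced with 50 µg tamoxifen daily from P1 to P3, and mice of either sex were used in the study. The methods name no separate treatment for the controls. Since the controls lacked the transgene, deletion and transgene cannot be told apart. Lung cells had been depleted of CD45+ and Ter119+ cells with magnetic beads, so immune cells were few, and each genotype is represented by 1 library. There is therefore no replicate and no test of any difference between genotypes or organs. Levels are given as CPM, the unique molecular identifiers (UMIs, 1 per captured transcript) of a gene scaled to 1e+06 UMIs of all cells of the same type in the same library, with exact Poisson 95% intervals. Ratios are log2 of iPCKO over control with conditional exact 95% intervals, and all intervals cover counting error alone.

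After filtering, 16720 cells were kept in the Bdnf control, 23835 in the Bdnf iPCKO, 14015 in the Hgf control, 15690 in the Hgf iPCKO, 3003 in the Nodal control and 4678 in the Nodal iPCKO library, at medians of 7166, 5061, 3975, 2850, 7979 and 8062 UMIs. Values in lists of 6 below follow this order, and lists of 4 are the lungs. Each cell was assigned to a type from marker genes, none of which is among the 5 genes, and types are called by the markers they carry (endothelial-like and so on, shortened to endothelial after this paragraph). A type was obtained for 85.2 to 95.1% of cells, and 1.76 to 10.2% carried markers of 2 lineages and were left out. Endothelial cells numbered 4340, 5679, 4866, 6191, 794 and 1411, and pericytes 123, 144, 100, 236, 265 and 411. All markers of both types had at least 3 UMIs in these cells in every library. Lung and cortex had separate marker sets for endothelial cells, their subtypes and pericytes. The Hgf libraries stood apart: between the Hgf control and the Bdnf control, lungs of the same age without deletion, 25.5% of 14995 genes in endothelial cells differed by more than 1.5-fold. The ratio of these control lungs is therefore given beside the main results as the only available measure of how far libraries differ without a deletion. Pairs of libraries had 20 to 431 cell barcodes in common.

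The deleted genes were lower in the pericytes of their iPCKO libraries. Nodal, a ligand of the TGF-beta family, had 183 UMIs (115 CPM) in control and 0 in Nodal iPCKO pericytes. Against a floor of 3 UMIs this was 100.2-fold lower, a log2 ratio of -6.65 with an upper interval end of -6.33. For Hgf, the ligand of the receptor MET, there were 25 UMIs (131 CPM) in control and 10 (26.5 CPM) in iPCKO pericytes, a log2 ratio of -2.31 (-3.53 to -1.20). Bdnf, a neurotrophin, had 10 and 3 UMIs (20.0 and 6.61 CPM), with a log2 ratio of -1.60 whose interval, -4.10 to 0.36, contained 0. Pdgfrb, a pericyte marker and the source of the promoter of the transgene, was higher in iPCKO than in control pericytes, at 2180 against 665 CPM in the Bdnf, 3974 against 1229 in the Hgf and 2077 against 835 in the Nodal pair. Assigning pericytes without Pdgfrb, an alternative chosen after seeing the data, moved none of 191 values beyond its interval.

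On GRCm39 (Gencode M39 annotation) Angpt1 lies at chr15:42288058-42540417 on the minus strand, Tek at chr4:94627291-94763224 on the plus strand, Tie1 at chr4:118328385-118347261 on the minus strand and Ptprb at chr10:116111428-116225440 on the plus strand. Angpt2 (chr8:18739202-18791603, minus strand) lies within the span of Mcph1, a gene of the opposite strand at chr8:18645128-18858114. Whether the counting used the strand is not given in the sources used here, and Mcph1 was listed at 12.8, 10.6, 9.83, 5.89, 9.30 and 8.09 CPM in endothelial cells. In control and Nodal iPCKO cortex, microglia had 11.5 and 12.1 CPM of Mcph1 beside 0.359 and 0.776 CPM of Angpt2. Neurons had 9.25 and 9.71 CPM of Mcph1 beside 0 CPM of Angpt2 in both. RefSeq promoter windows were matched for 2 of the 5 genes, Tek and Tie1. Their 250 bases before the start site (GRCm38.p6) are printed since no window was matched for the other members. Capitals mark GGAA and its reverse complement TTCC, the core of the sites of ETS factors, a family with endothelial members, searched as these 4 letters on both strands. The first window is chr4:94739039-94739288 (plus strand) and the second chr4:118489850-118490099 (minus strand).
Tek: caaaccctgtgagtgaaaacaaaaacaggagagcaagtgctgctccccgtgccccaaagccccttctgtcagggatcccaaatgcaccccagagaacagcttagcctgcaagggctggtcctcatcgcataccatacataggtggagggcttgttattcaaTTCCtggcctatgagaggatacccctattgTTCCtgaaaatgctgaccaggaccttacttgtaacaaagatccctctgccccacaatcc
Tie1: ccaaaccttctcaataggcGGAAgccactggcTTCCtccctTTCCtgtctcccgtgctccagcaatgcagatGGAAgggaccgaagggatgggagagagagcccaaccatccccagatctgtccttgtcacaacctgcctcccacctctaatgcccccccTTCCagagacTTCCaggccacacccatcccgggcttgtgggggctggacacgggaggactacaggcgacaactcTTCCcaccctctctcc
The Tie1 window held 7 matches (2 GGAA, 5 TTCC) and the Tek window 2 (both TTCC). Of 32851 windows of this length, 93.4% held a match, 3.82% held at least 7 and 76.8% held at least 2. A match is a description of the letters, and binding was not measured.

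Angpt1 was a transcript of pericytes and matrix fibroblasts in the lung and of smooth muscle cells in the cortex. In lung pericytes its level was 964 (879 to 1054), 807 (726 to 894), 935 (803 to 1083) and 1000.2 (902 to 1106) CPM. This was the highest level of any lung cell type in all 4 libraries. Matrix fibroblasts, the lipid-rich fibroblasts of the alveolar wall, followed with 666 (631 to 701), 642 (597 to 691), 429.9 (376 to 490) and 554 (458 to 664) CPM, and their intervals did not overlap those of pericytes of the same library. Levels in adventitial fibroblasts, which surround larger vessels and airways, were 131, 121, 132 and 82.4 CPM, and those in smooth muscle cells 75.2, 57.9, 196 and 174 CPM. The order of these last types was not stable, since smooth muscle cells lay below adventitial fibroblasts in the Bdnf and above them in the Hgf libraries, with overlapping intervals in the Hgf control. In endothelial cells, which carry the receptor, Angpt1 had 13.2, 11.95, 8.31 and 7.69 CPM. Alveolar type 2 (AT2) epithelial cells had less, 6.34, 6.67, 2.86 and 3.94 CPM. Barcodes with too few UMIs to hold a whole cell had more than both, 96.1, 83.9, 55.2 and 36.3 CPM. The part of this free RNA in the endothelial and AT2 levels was not tested.

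Cortical pericytes had far less Angpt1 than lung pericytes, 66.1 (54.1 to 80.1) CPM in control and 61.4 (52.2 to 71.7) CPM in Nodal iPCKO. The highest cortical level was in vascular smooth muscle cells (vSMC), at 151 (124 to 181) and 177 (148 to 209.6) CPM. Fibroblasts had 72.4 (57.9 to 89.4) and 52.9 (41.0 to 67.1) CPM, and their intervals overlapped those of pericytes in both libraries. Astrocytes, whose endfeet cover the vessels, had 47.7 and 45.0 CPM, neurons 29.6 and 15.6 CPM, and endothelial cells and microglia no more than 1.74 CPM. The level in pericytes of the Bdnf control lung was 14.6-fold that of the control cortex (log2 3.86, 3.56 to 4.18) and that of the Hgf control lung 14.1-fold (3.82). With Leiden clusters these log2 ratios were 3.54 and 2.46. Of genes tested in pericytes, 55.8 and 52.5% differed by more than 1.5-fold between these lungs and the cortex. Organ, age, dissociation, depletion and the pericyte markers, which differed between lung and cortex, cannot be told apart in this comparison.

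**Figure D1:**
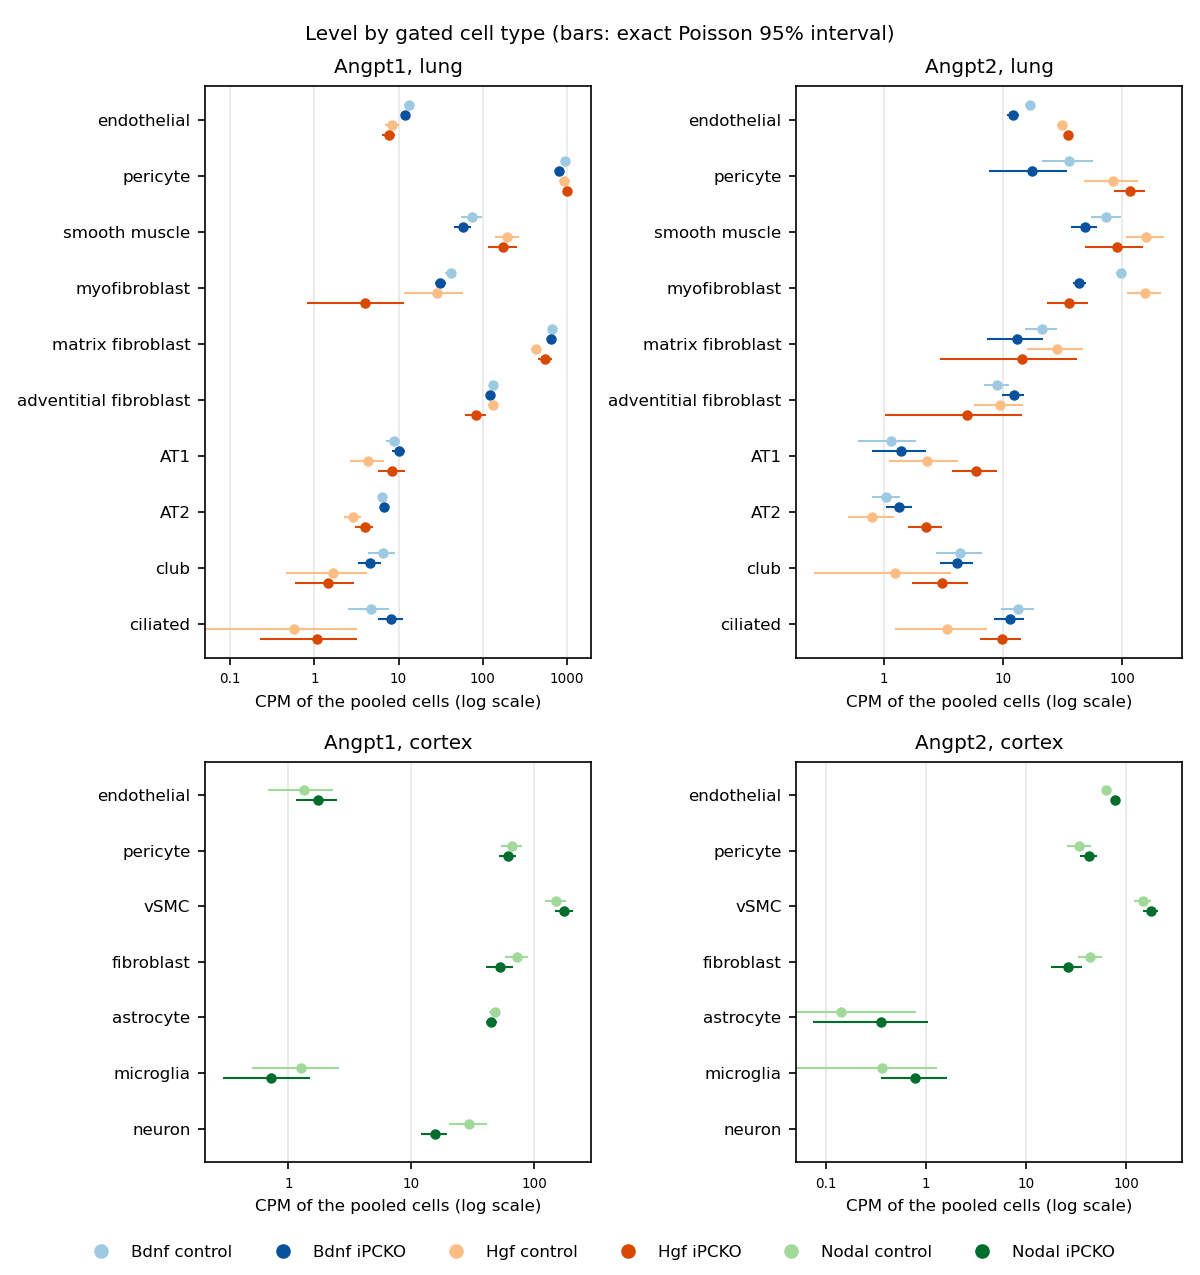
Levels of Angpt1 and Angpt2 in CPM on a log axis, by cell type, with lung libraries above and cortex libraries below. Points are pooled cells of 1 library, bars exact Poisson 95% intervals, and types listed at 0 (Angpt2 in cortical neurons) are not drawn. Angpt1 is highest in lung pericytes (807 to 1000.2 CPM) and in cortical vSMC (151 and 177 CPM).

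The share of cells with an Angpt1 UMI followed the same pattern. It was 86.2, 78.5, 68.0 and 68.6% of lung pericytes (medians of 3665, 2886, 1835.5 and 1520.5 UMIs) against 2.82, 2.41, 0.93 and 1.11% of AT2 cells (8625.5, 6130, 4782 and 3692 UMIs), which are taken as background. In cortex it was 21.9 and 24.6% of pericytes (5655 and 5749 UMIs) against 0.69 and 0.36% of microglia (6161 and 6429.5 UMIs). After thinning each lung cell to 1500 UMIs, which left out 0, 3, 38 and 122 shallower pericytes, 71.5, 66.0, 74.2 and 77.2% of lung pericytes held a UMI against at most 0.80% of AT2 cells. At 3000 UMIs, 16.7 and 14.3% of cortical pericytes did, with 37 and 54 left out.

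Although pericytes had the highest level per cell, most Angpt1 UMIs came from other cells. Pericytes were 0.826, 0.71, 0.78 and 1.71% of the assigned lung cells and held 11.9, 11.8, 18.8 and 46.8% of Angpt1 UMIs. Matrix fibroblasts held 34.9, 23.6, 23.9 and 14.4%, and adventitial fibroblasts 25.3, 28.3, 28.2 and 6.21%. The large share of Hgf iPCKO pericytes went with fewer fibroblasts in that library, 150 matrix and 165 adventitial cells against 238 and 286 in its control. In the cortex, astrocytes held 48.6 and 44.9% of Angpt1 UMIs, pericytes 15.2 and 19.0% and vSMC 16.1 and 15.6%. These shares follow the mixture of cells after dissociation and depletion.

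The ratio of Angpt1 in pericytes between iPCKO and control depended on how pericytes were assigned. The log2 ratio was -0.26 (-0.46 to -0.06) in the Bdnf, 0.10 (-0.16 to 0.36) in the Hgf and -0.11 (-0.47 to 0.26) in the Nodal pair, and the control lungs differed by -0.04 (-0.30 to 0.21). The interval of the Bdnf pair did not contain 0. With pericytes taken from Leiden clusters the ratios were -0.96 in the Bdnf and 1.49 in the Hgf pair, where 2 of the 4 clusters were mixed: 67 of 131 cells in the Hgf control and 94 of 168 in the Bdnf iPCKO were pericytes by their markers, against 81 of 90 in the Bdnf control and 183 of 188 in the Hgf iPCKO. A higher UMI minimum gave -0.54 in the Bdnf pair. In matrix fibroblasts the ratios were -0.05 (-0.18 to 0.08) and 0.37 (0.03 to 0.69), with -0.63 (-0.84 to -0.43) between the control lungs. Adventitial fibroblasts had -0.12 (-0.25 to 0.01) in the Bdnf and -0.68 (-1.15 to -0.24) in the Hgf pair, where the control lungs differed by 0.01 (-0.19 to 0.21). Cortical astrocytes (-0.08, -0.30 to 0.13) and vSMC (0.23, -0.14 to 0.61) had intervals that contained 0, and neurons a ratio of -0.93 (-1.57 to -0.28) from 32 UMIs in control.

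Angpt2 was found in endothelial and in mural cells. Its highest source cannot be compared between organs, since lymphatic cells were assigned in the lung only and tip cells in the cortex only. Among lung cells its level was highest in lymphatic endothelial cells in 3 of 4 libraries, at 175 (149.5 to 204), 97.6 (76.2 to 123), 165 (134 to 203) and 87.0 (59.9 to 122) CPM. Smooth muscle cells had 73.7, 48.4, 160.0 and 90.2 CPM, and myofibroblasts, contractile cells of the growing alveolar septa, had 97.8, 43.9, 155 and 36.1 CPM. In the Hgf iPCKO library pericytes (117, 84.8 to 157 CPM) came first, but their interval overlapped those of smooth muscle and lymphatic cells. In the other lungs pericytes had 36.1 (21.4 to 57.0), 17.6 (7.61 to 34.8) and 84.0 (48.0 to 136) CPM. In the Hgf control the lymphatic interval overlapped those of smooth muscle cells and myofibroblasts. AT2 cells stayed between 0.797 and 2.24 CPM.

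Within the blood endothelium of the lung, the level of Angpt2 was highest in the general capillaries (gCap), the cells that act as capillary progenitors. Their level was 12.9 (10.1 to 16.2), 17.99 (14.6 to 21.9), 44.1 (37.3 to 51.7) and 62.9 (55.3 to 71.3) CPM. Aerocytes (aCap), the large capillary cells of the gas exchange surface, had 3.81, 4.46, 11.7 and 15.2 CPM, with log2 ratios over gCap of -1.76, -2.01, -1.91 and -2.05. Venous cells had 9.70, 5.64, 27.7 and 14.9 CPM and arterial cells 7.28, 6.13, 15.4 and 24.9 CPM. The ratio of venous cells over gCap was -0.41 (-0.98 to 0.16) in the Bdnf control, where the interval contained 0, and -1.67, -0.67 and -2.08 in the other lungs. Lymphatic cells exceeded gCap by 3.77 (3.36 to 4.19), 2.44 (1.98 to 2.89) and 1.91 (1.52 to 2.29) on the log2 scale in the first 3 libraries and by 0.47 (-0.10 to 0.99) in the Hgf iPCKO. Of all genes tested in these 4 libraries 17.4, 16.8, 16.7 and 16.5% were higher in lymphatic cells by more than 1.5-fold. In the cortex the level was highest in tip cells, the leading cells of vessel sprouts, at 234 (211 to 259.5) and 245 (229 to 262) CPM, against 44.3 and 41.8 CPM in capillary cells. Tip cells exceeded capillary cells by 2.40 (2.11 to 2.71) and 2.55 (2.31 to 2.81) on the log2 scale, where 7.39 and 7.66% of genes were higher by more than 1.5-fold. Arterial cells had 3.89 and 11.01 CPM, venous cells 11.6 and 9.23 CPM, vSMC 148 and 177 CPM and pericytes 34.0 and 42.2 CPM.

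An Angpt2 UMI was seen in 38.4, 20.7, 40.6 and 24.5% of lymphatic cells against 0.81, 0.75, 0.34 and 0.80% of AT2 cells, and in 63.9 and 75.5% of tip cells against 0.23 and 0.36% of microglia. After thinning, the shares of tip cells were 38.7 and 38.1%, with 3 and 10 cells left out. Endothelial cells held 34.7, 32.7, 71.9 and 73.5% of the lung and 72.7 and 81.2% of the cortical Angpt2 UMIs. Myofibroblasts held 36.1 and 26.2% in the Bdnf libraries, where they were 6.9 and 8.39% of cells, and 6.63 and 3.76% in the Hgf libraries, where they were 0.84 and 3.18%.

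The ratio of Angpt2 differed in sign between cell types. Over all endothelial cells the level was 16.9 (15.2 to 18.7), 12.1 (10.7 to 13.6), 31.4 (28.5 to 34.6), 35.3 (32.3 to 38.4), 63.6 (58.5 to 69.0) and 78.2 (74.0 to 82.7) CPM. The log2 ratio was -0.48 (-0.71 to -0.25) in the Bdnf, 0.17 (-0.02 to 0.36) in the Hgf and 0.30 (0.16 to 0.44) in the Nodal pair. The control lungs differed by more, 0.90 (0.69 to 1.10), and the sign of the Bdnf value turned (0.042) when each cell's own CPM was averaged. Of the 378 UMIs of the Bdnf control, 166 were in its 112 lymphatic cells, and of the 283.5 of the Bdnf iPCKO, 71 were in 121 lymphatic cells. Within gCap the sign of the Bdnf pair was the opposite, 0.48 (0.03 to 0.94), beside 0.51 (0.22 to 0.82) in the Hgf pair and 1.78 (1.36 to 2.20) between the control lungs. The level in tip cells was similar in the Nodal pair (0.07, -0.11 to 0.25).

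In lymphatic endothelial cells Angpt2 was lower in both iPCKO lungs, with ratios of -0.84 (-1.27 to -0.43) and -0.93 (-1.55 to -0.34), while the control lungs differed by -0.08 (-0.46 to 0.29). In the Bdnf pair 5.99% of genes tested in these cells were lower by more than 1.5-fold, and in the Hgf pair 15%. The Hgf ratio rests on 93 UMIs in control and 33 in iPCKO. After thinning, which left out 1, 2, 16 and 27 cells, the shares of lymphatic cells with a UMI were 16.2 (exact binomial interval, 9.90 to 24.4) and 10.9% (5.95 to 17.96) in the Bdnf and 18.8 (12.2 to 27.1) and 17.3% (9.57 to 27.8) in the Hgf pair, with overlapping intervals. Myofibroblasts had the lowest ratio of Angpt2 of any cell type in either lung pair, with a level that went from 97.8 (88.4 to 108) to 43.9 (38.5 to 50.1) CPM in the Bdnf pair, a ratio of -1.16 (-1.39 to -0.91), and from 155 (110.0 to 213) to 36.1 (23.5 to 51.8) CPM in the Hgf pair, a ratio of -2.11. The control lungs differed by 0.67 (0.15 to 1.15), with the Hgf control higher, and 4.9 and 13.3% of genes in myofibroblasts were lower by more than 1.5-fold in the iPCKO of these pairs. The median gene of myofibroblasts had a ratio of 0.12 in the Hgf pair, whose control held 107 of these cells against 438 in its iPCKO. Smooth muscle cells had -0.61 (-1.16 to -0.04) and -0.83 (-1.85 to 0.13) beside 1.12 between the control lungs, and lung venous cells -0.78 (-1.53 to -0.06) and -0.89 (-1.52 to -0.27) beside 1.51 between the control lungs.

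Compared with the cortex, the pooled endothelial cells of the lung had less Angpt2, with log2 ratios of control lung over control cortex of -1.92 (-2.11 to -1.73) for the Bdnf and -1.02 (-1.20 to -0.83) for the Hgf library. Of all genes tested in endothelial cells 58.8 and 53.8% were past 1.5-fold in these comparisons, and the median gene was higher in the lung by 0.21 and 0.24. Relative to that median the ratios of Angpt2 were -2.13 and -1.26. The pooled cortical cells included the tip cells, and not every subtype shared this direction. Subtypes were assigned by different markers in lung and cortex, which cannot be told apart from the organ in their ratios. Aerocytes over cortical capillary cells had -3.54 (-4.45 to -2.74) in the Bdnf and -1.92 (-2.45 to -1.42) in the Hgf control. Lung gCap over cortical capillary cells had -1.78 (-2.22 to -1.35) in the Bdnf and -0.01 (-0.36 to 0.35) in the Hgf control. Venous cells had -0.26 (-1.10 to 0.64) and 1.25 (0.44 to 2.14), and arterial cells 0.90 (-0.48 to 2.63) and 1.99 (0.57 to 3.74).

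Tek, the gene of TIE2, was highest in endothelial cells of every library, at 754 (743 to 766), 639.6 (629 to 650), 585 (572 to 599), 449 (438 to 459), 311 (300.0 to 323) and 249.5 (242 to 257) CPM. Each iPCKO level lay below that of its control, and no intervals within a pair overlapped. The log2 ratios were -0.24 (-0.27 to -0.21) in the Bdnf, -0.38 (-0.43 to -0.34) in the Hgf and -0.32 (-0.39 to -0.25) in the Nodal pair. The control lungs differed by -0.37 (-0.41 to -0.33), close to the ratio of the Hgf pair and more than that of the Bdnf pair. There was 1 control library of the cortex, so no such value could be had for the Nodal pair. Aerocytes, which had less Tek than gCap, were 647 of 4340, 1127 of 5679, 1138 of 4866 and 1668 of 6191 lung endothelial cells. The part of this subtype mix in the pooled Tek ratios was not tested, and ratios within subtypes are given below. A Tek UMI was held by 85.0, 77.2, 65.6, 55.7, 86.4 and 80.2% of endothelial cells, whose medians were 4234.5, 3295, 2175.5, 1918, 9761 and 10062 UMIs. After thinning, which left out 11, 26, 1298, 2040, 62 and 127 of them, the shares were 62.6, 56.1, 51.5, 41.2, 58.9 and 54.1%, again lower in each iPCKO. Background shares after thinning were 7.56, 7.65, 6.22 and 8.07% of AT2 cells and 18.8 and 11.1% of microglia.

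The level of Tek depended on the endothelial subtype. General capillaries had 1078, 992, 940.5 and 729 CPM and aerocytes 238, 232, 188 and 176 CPM, a 4.52-, 4.28-, 5.01- and 4.14-fold difference. Of all genes tested between these capillary types, 14.9, 12.7, 17 and 13.1% were lower in aerocytes by more than 1.5-fold. Arterial cells had 908, 707, 719.8 and 465 CPM, venous cells 609.9, 516, 555 and 369 CPM, and lymphatic cells 210.0, 242, 169 and 198 CPM. Cortical arterial cells (478 and 432 CPM) lay above capillary (324 and 272 CPM), venous (295 and 231 CPM) and tip cells (178 and 138 CPM). Thus tip cells, which had the most Angpt2 in the cortex, had the least Tek there.

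Between genotypes, arterial Tek was lower with ratios of -0.36 and -0.63, venous with -0.24 and -0.59, and gCap with -0.12 and -0.37 in the Bdnf and Hgf pairs. Between the control lungs the ratios were -0.34 in arterial, -0.14 in venous and -0.20 in gCap cells. Aerocytes had ratios of -0.04 (-0.17 to 0.09) and -0.09 (-0.24 to 0.06), and lymphatic cells of 0.20 (-0.10 to 0.50) and 0.23 (-0.23 to 0.68), and all these intervals contained 0. In the Nodal pair capillary cells had a ratio of -0.25 and tip cells of -0.37. Lung endothelial cells exceeded those of the cortex 2.42-fold (log2 1.28, 1.22 to 1.33) in the Bdnf and 1.88-fold (0.91, 0.85 to 0.97) in the Hgf control, or by 1.06 and 0.67 on the log2 scale relative to the median gene. Lung gCap exceeded cortical capillary cells by 1.73 and 1.54 on the log2 scale, whereas aerocytes lay below them, by -0.44 and -0.79.

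**Figure D2:**
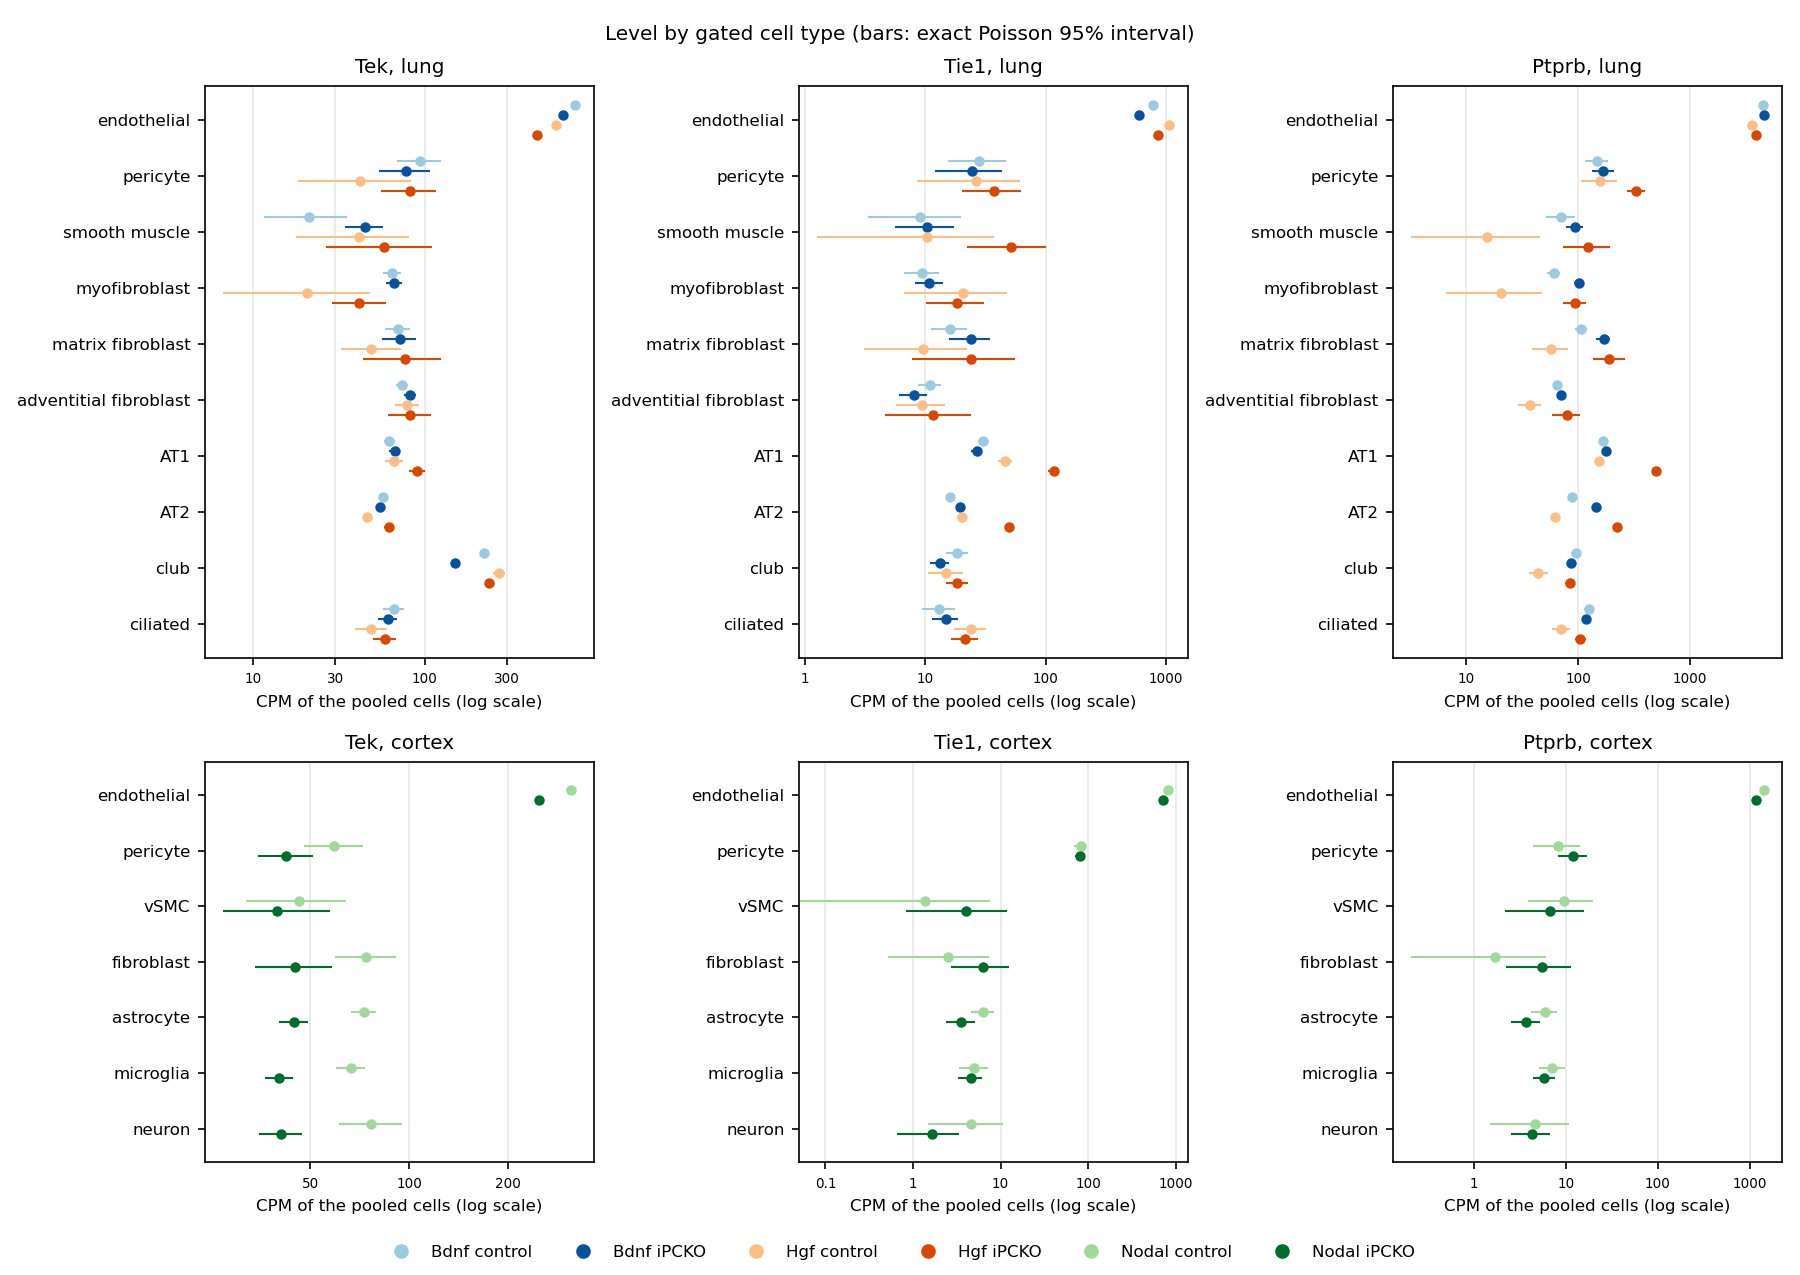
Levels of Tek, Tie1 and Ptprb in CPM on a log axis, by cell type, with lung libraries above and cortex libraries below. Points are pooled cells of 1 library and bars exact Poisson 95% intervals. Endothelial cells have the highest level of each gene, and lung club cells come next for Tek (150.2 to 271 CPM).

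Tie1 was the most evenly spread of the receptor genes over endothelial subtypes. Its endothelial level was 778 (767 to 790), 601 (591 to 611), 1074 (1056 to 1091), 867 (853 to 882), 815 (797 to 834) and 709 (696 to 722) CPM. As for Tek, each iPCKO lay below its control, with ratios of -0.37 (-0.40 to -0.34), -0.31 (-0.34 to -0.27) and -0.20 (-0.24 to -0.16). The Hgf control lay above the Bdnf control by 0.46 (0.43 to 0.50), more than any of these. A UMI was held by 93.3, 83.0, 87.9, 77.7, 97.5 and 96.8% of endothelial cells, and by 68.5, 59.0, 78.9, 69.1, 91.8 and 85.6% after thinning, against 7.68, 7.92, 5.65 and 9.86% of AT2 cells and 3.11 and 2.51% of microglia before it.

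Over the subtypes of the lung, Tie1 differed from its gCap level by -0.50 to 0.57 on the log2 scale. General capillaries had 904, 692, 1285 and 964 CPM, aerocytes 738, 547, 906 and 747 CPM, arterial cells 745, 553, 1035 and 806 CPM and venous cells 688, 577, 966 and 814 CPM. Lymphatic cells had 717, 639, 1146 and 1428 CPM, and were the only subtype in which Tie1 was higher in an iPCKO than in its control (Hgf pair, 0.32, 0.15 to 0.48). The Bdnf pair had -0.17 there and the control lungs 0.68. In the cortex the range was 679 to 893 CPM in control and 582 to 834 CPM in Nodal iPCKO. Control lung over control cortex gave -0.07 (-0.11 to -0.03) for the Bdnf and 0.40 (0.36 to 0.44) for the Hgf library, or -0.28 and 0.16 relative to the median gene, so the organs did not differ in a common direction.

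Tie1 UMIs were also found in cortical pericytes. Their level was 82.5 (69.0 to 97.9) CPM in control and 80.9 (70.4 to 92.6) CPM in Nodal iPCKO, against 28.0, 24.2, 26.3 and 37.1 CPM in lung pericytes and 1.36 and 4.02 CPM in cortical vSMC. From the summed level of the endothelial markers in the same pericytes, 23.0 and 18.5 CPM of Tie1 would correspond to endothelial RNA. Ptprb, for which 39.8 and 30.3 CPM would correspond to it, had 8.19 and 11.9 CPM. Among pericytes without any endothelial marker UMI, Tie1 had 6 UMIs in 41 control cells (31.7, 11.6 to 69.0 CPM) and 48 UMIs in 84 iPCKO cells (103, 76.3 to 137 CPM). In pericytes with such UMIs the level was 89.4 CPM in control and 76.1 CPM in iPCKO. The part of endothelial RNA in these levels was not tested. A UMI of Tie1 was found in 29.1 and 30.9% of cortical pericytes against 3.11 and 2.51% of microglia. The log2 ratio of lung over cortex pericytes was -1.56 (-2.47 to -0.76) for the Bdnf and -1.65 (-3.30 to -0.39) for the Hgf control. It was -3.12 and -3.77 with a stricter gate, and with Leiden clusters it was -2.79 for the Bdnf and 2.23 for the Hgf control, a turned direction.

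Ptprb, the gene of VE-PTP, had endothelial levels of 4536 (4508 to 4564), 4595 (4567 to 4622), 3594 (3562 to 3627), 3877 (3845 to 3908), 1413 (1389 to 1438) and 1162 (1145 to 1178) CPM. In the iPCKO lungs its ratios were 0.02 (0.01 to 0.03) and 0.11 (0.09 to 0.13), and it was lower in the Nodal iPCKO cortex, -0.28 (-0.32 to -0.25). The Bdnf value was -0.041 with a higher UMI minimum and -0.060 with Leiden clusters. The control lungs differed by -0.34 (-0.35 to -0.32). A UMI was found in 90.9, 89.4, 85.0, 84.2, 98.5 and 96.9% of endothelial cells, against 18.5, 24.8, 11.6 and 20.1% of AT2 cells and 4.27 and 3.08% of microglia.

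Its subtypes fell into high and low ones. Venous cells had 7182, 7285, 5531 and 5725 CPM, arterial cells 5726, 5521, 4887 and 4633 CPM and gCap 4521, 5168, 5078 and 5082 CPM. Aerocytes had 918, 1108, 792 and 1197 CPM and lymphatic cells 718, 1124, 646 and 993 CPM. Aerocytes lay below gCap by -2.30, -2.22, -2.68 and -2.09 on the log2 scale, as they did for Tek and Angpt2, and lymphatic cells by -2.66, -2.20, -2.97 and -2.35. The low subtypes had the highest ratios of Ptprb in both lung pairs. In aerocytes the ratio was 0.27 (0.21 to 0.33) and 0.60 (0.53 to 0.66), with -0.21 between the control lungs, and in lymphatic cells 0.65 (0.50 to 0.79) and 0.62 (0.41 to 0.83), with -0.15 (-0.34 to 0.03). In lymphatic cells 7.48 and 12.1% of all genes were higher by more than 1.5-fold in these pairs. The barcodes with 10 to 100 UMIs, which hold no whole cell, had 1111 and 1197 CPM of Ptprb in the Bdnf and 1086 and 1806 CPM in the Hgf control and iPCKO, at or above the levels of aerocytes and lymphatic cells, and the part of this free RNA in their ratios was not tested. Among the high subtypes, gCap had 0.19 (0.17 to 0.22) in the Bdnf and 0.00 (-0.03 to 0.03) in the Hgf pair, venous cells 0.02 and 0.05 and arterial cells -0.05 and -0.08. Between the control lungs these had 0.17, -0.38 and -0.23. In the Nodal pair venous cells went from 1206 to 888 CPM (-0.44, -0.53 to -0.35), tip cells from 986 to 794 CPM (-0.31), capillary cells from 1633 to 1408 CPM (-0.21) and arterial cells from 1943 to 1830.5 CPM (-0.09).

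Ptprb was higher in lung than in cortical endothelium, 3.21-fold (log2 1.68, 1.66 to 1.71) for the Bdnf and 2.54-fold (1.35, 1.32 to 1.38) for the Hgf control, or by 1.47 and 1.10 on the log2 scale relative to the median gene. In venous cells the log2 ratios were 2.57 and 2.20, whereas aerocytes lay below cortical capillary cells, by -0.83 (-0.90 to -0.77) and -1.04 (-1.11 to -0.98).

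**Figure D3:**
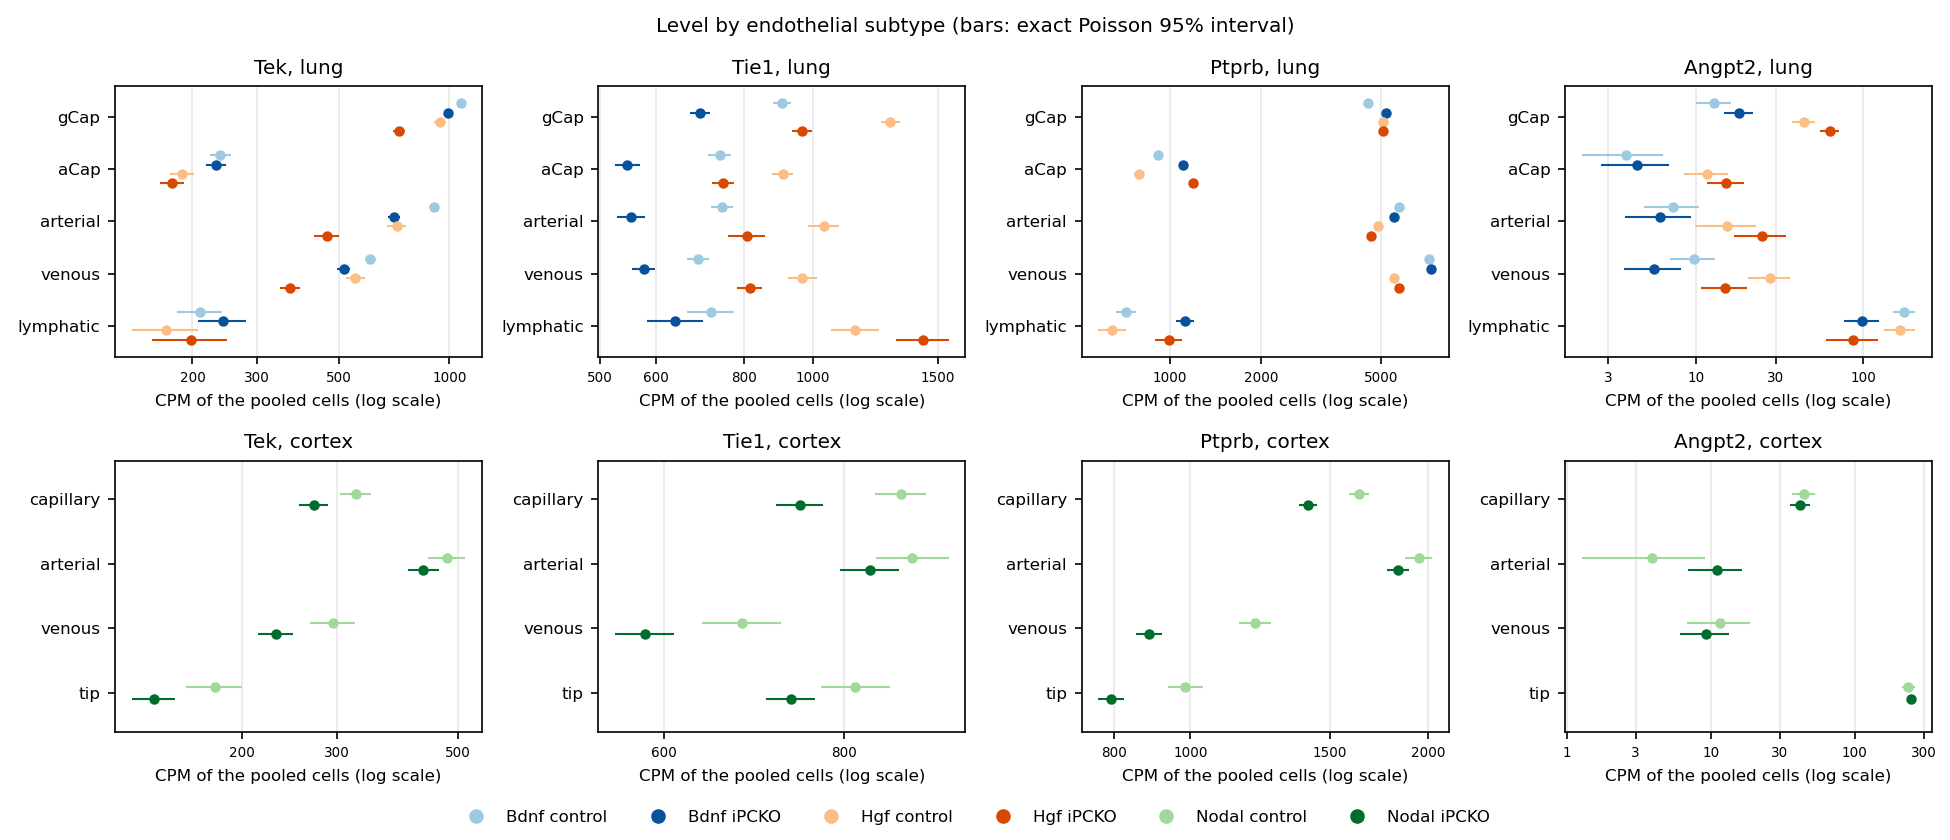
Levels of Tek, Tie1, Ptprb and Angpt2 in CPM on log axes, by endothelial subtype, in the lung (above) and cortex (below). Points are pooled cells of 1 library and bars exact Poisson 95% intervals. Aerocytes lie below general capillaries for Tek, Ptprb and Angpt2. Angpt2 is highest in lymphatic cells of the lung, where the interval overlaps that of gCap in the Hgf iPCKO, and in tip cells of the cortex.

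Counted over the members with at least 50 UMIs in a pair, 0 of 5 were past 1.5-fold in endothelial cells of the Bdnf pair, where 11% of all genes tested were, 0 of 5 in the Hgf pair (27.7%) and 0 of 4 in the Nodal pair (7.65%). Between the control lungs 2 of 5 were (25.5%), Angpt1 lower and Angpt2 higher in the Hgf control. In pericytes the counts were 0 of 3 (14.7%), 1 of 3 (30.1%, Ptprb higher) and 0 of 4 (8.72%). This Ptprb value rests on 30 UMIs in control and 125 in iPCKO, and it reached 50 UMIs only through the library where it was high. Angpt2 was lower and Ptprb higher by more than 1.5-fold in both lung pairs in lymphatic cells (2 of 4 members, with 13.5 and 27.1% of genes past 1.5-fold) and in myofibroblasts (2 of 5 and 2 of 2 members, with 10.6 and 38.6%), of whose genes 5.72 and 25.3% were higher. Ptprb in myofibroblasts of the Hgf pair, with 5 UMIs in control and 71 in iPCKO, reached 50 UMIs only through the library where it was high, and its count there is not support for a shared pattern. The same holds for Angpt2 in lymphatic cells of the Hgf pair, with 93 UMIs in control and 33 in iPCKO. In matrix fibroblasts Angpt2 and Ptprb were past it in the Bdnf pair (2 of 5, 16.3%) and Ptprb in the Hgf pair (1 of 2, 40%). Neither library reached 50 UMIs by itself for this Angpt2 (45 and 15) or for Ptprb in the Hgf pair (30 and 39.5).

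In the other endothelial subtypes of the Bdnf pair the counts were 0 of 5 in gCap (11.6%) and arterial cells (10.8%), 1 of 4 in aerocytes (Angpt1 lower, 11%) and 1 of 5 in venous cells (Angpt2 lower, 14.4%). In the Hgf pair they were 0 of 5 in gCap (26%), 1 of 4 in aerocytes (Ptprb higher, 25.6%), 2 of 4 in arterial cells (Angpt2 higher and Tek lower, 27.5%) and 2 of 4 in venous cells (both of these lower, 27.3%). No member was past 1.5-fold in capillary (0 of 4, 6.4%), arterial (0 of 3, 10.1%), venous (0 of 3, 10.7%) or tip cells (0 of 4, 9.7%) of the Nodal pair.

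Outside the endothelium of the Bdnf lung the counts were 2 of 4 in smooth muscle cells (Angpt2 lower and Tek higher, 15.3%), 1 of 5 in AT2 cells (Ptprb higher, 12.8%) and 0 in adventitial fibroblasts (10.9%), AT1 (14.7%), club (9.3%) and ciliated cells (8.76%). Those of the Hgf lung were 2 of 3 in adventitial fibroblasts (Angpt1 lower and Ptprb higher, 39.2%), 3 of 4 in AT1 cells (27.3%), 3 of 5 in AT2 cells (30.3%), 1 of 3 in club cells (26.1%), 0 of 3 in ciliated cells (22.7%) and 0 of 1 in smooth muscle cells (42.1%). All those past it in AT1, AT2 and club cells were higher. In the Nodal pair 3 of 4 members were past 1.5-fold in astrocytes (Tek, Tie1 and Ptprb, 7.73%), 1 of 3 in microglia (Tek, 13.8%), 2 of 2 in neurons (Angpt1 and Tek, 15.1%), 2 of 3 in fibroblasts (Angpt2 and Tek, 11.7%) and 0 of 3 in vSMC (11.6%), all of them lower. The background of these types of the Hgf pair was thus from 22.7 to 42.1%.

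**Figure D4:**
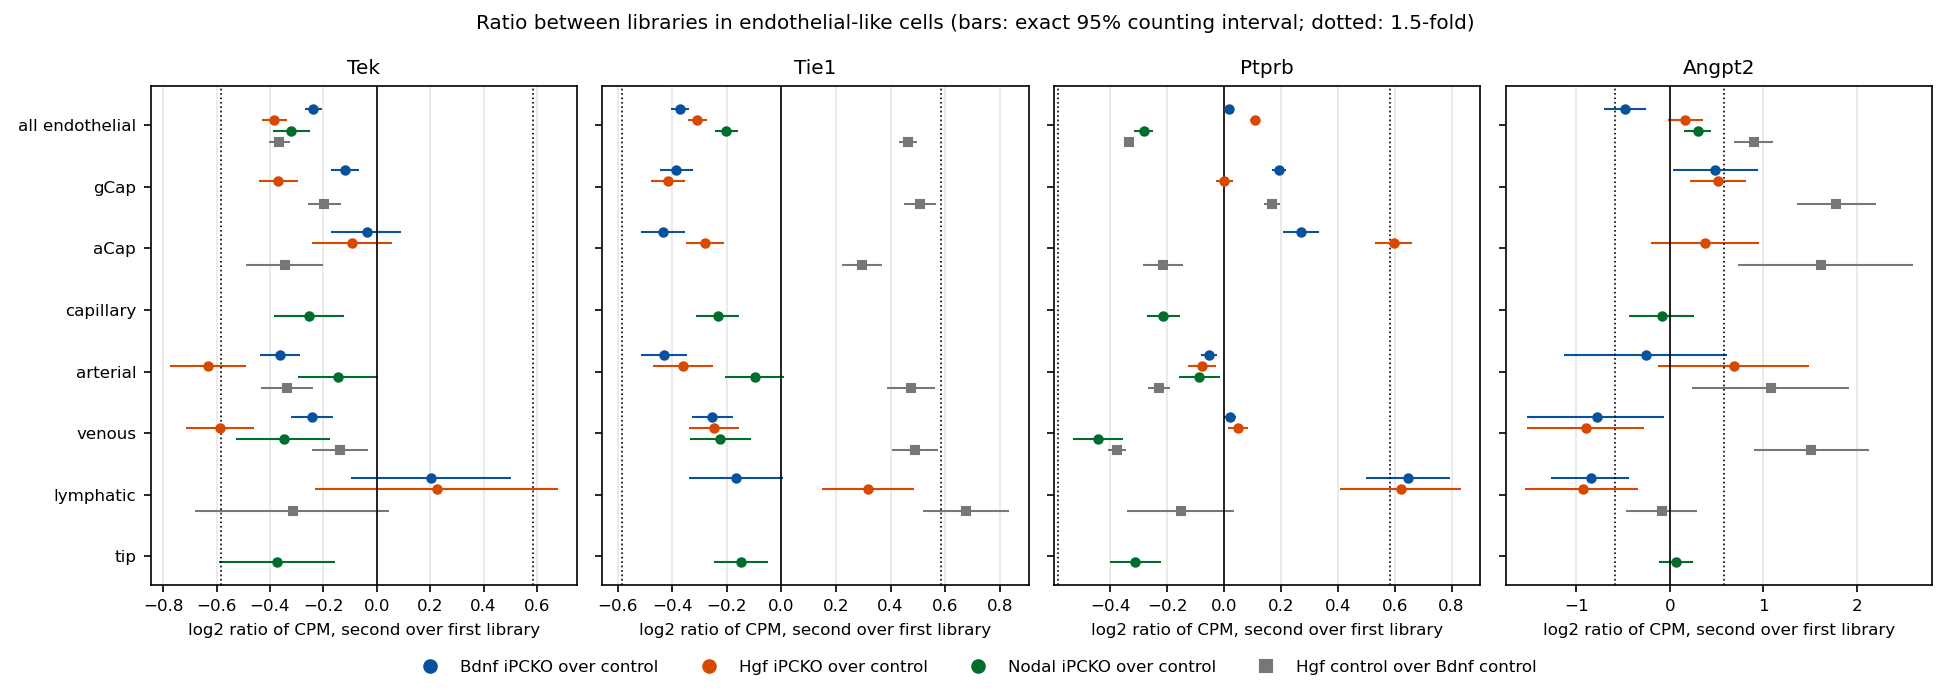
Log2 ratios of Tek, Tie1, Ptprb and Angpt2 in endothelial cells and their subtypes for the 3 iPCKO over control pairs (circles) and for Hgf control over Bdnf control (grey squares), where at least 50 UMIs were counted. Bars are conditional exact 95% intervals and dotted lines mark 1.5-fold. Tek and Tie1 lie below 0 over all endothelial cells in all 3 pairs, with the grey squares at -0.37 and 0.46.

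Outside the endothelium the receptor genes behaved differently from each other. The endothelial markers summed over the 39 combinations of another lung cell type and library reached a median of 2.43% (0.835 to 12.5%) of their level in endothelial cells. Tie1 (2.19%) and Ptprb (2.17%) had nearly the same median. Tek did not, with a median of 9.77% and a range of 2.79 to 53.0%, or 20.4 to 271 CPM. In the 12 cortical combinations the median was 0.785% (0.332 to 14.5%) for the markers and 0.592% (0.166 to 11.4%) for Tie1. It was 0.487% (0.119 to 1.02%) for Ptprb and 17.9% (14.8 to 24.5%) for Tek. The highest marker value in the cortex thus lay far above that of Ptprb, and what part of the marker sum was endothelial RNA was not tested.

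Tek was highest among these in lung club cells, the secretory cells of the airways, at 223 (209.8 to 236), 150.2 (142 to 158), 271 (251 to 293) and 238 (224 to 252) CPM. Endothelial markers in club cells were at 1.69, 1.92, 1.66 and 1.78% of their endothelial level, which would correspond to 12.7, 12.3, 9.70 and 7.99 CPM of Tek. A Tek UMI was held by 81.7, 73.3, 77.8 and 64.2% of club cells and 32.8, 23.9, 18.6 and 18.5% of AT2 cells. After thinning, which left out 2, 3, 38 and 121 club cells, their shares were 26.1, 19.5, 36.1 and 27.1%, above those of AT2 cells given before. In the cortex, microglia had 66.5 and 40.2 CPM, astrocytes 72.7 and 44.5 CPM and neurons 76.4 and 40.8 CPM, with ratios of -0.72, -0.71 and -0.90 in the Nodal pair, larger than in endothelial cells. Barcodes with 10 to 100 UMIs, which hold no whole cell, had 422, 384, 351, 403, 344 and 258 CPM of Tek, 55.9 to 110% of the endothelial level, while the endothelial markers there were at 18.5 to 31.4%. Free RNA thus held Tek in every library. This was not particular to Tek, since Ptprb in these barcodes had 24.5, 26.1, 30.2, 46.6, 66.6 and 71.1% of its endothelial level and Tie1 24.2, 23.0, 20.6, 31.3, 38.2 and 44.9%. The part of free RNA in the levels outside the endothelium was not tested.

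Several higher values of Ptprb and Tie1 outside the endothelium went together with the endothelial markers. In the Hgf iPCKO lung, AT1 cells had 494 CPM of Ptprb against 155 in control (1.67) and 117 CPM of Tie1 against 46.2 (1.33), while the markers went from 6.35 to 12.5% of their endothelial level. AT2 cells had 222 against 62.8 CPM of Ptprb (1.82) and 49.4 against 20.1 CPM of Tie1 (1.30), with markers at 5.85 and 2.52%. The higher Ptprb of Hgf iPCKO pericytes, 332 against 158 CPM (1.07, 0.49 to 1.70), went with markers at 7.17 and 4.24%. In myofibroblasts Ptprb was 101 against 60.5 CPM (0.74) in the Bdnf and 93.7 against 20.4 CPM (2.20, from 71 and 5 UMIs) in the Hgf pair, with markers at 2.43 against 1.45% and 1.36 against 0.835%. The part of endothelial RNA in these differences was not tested.

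**Figure D5:**
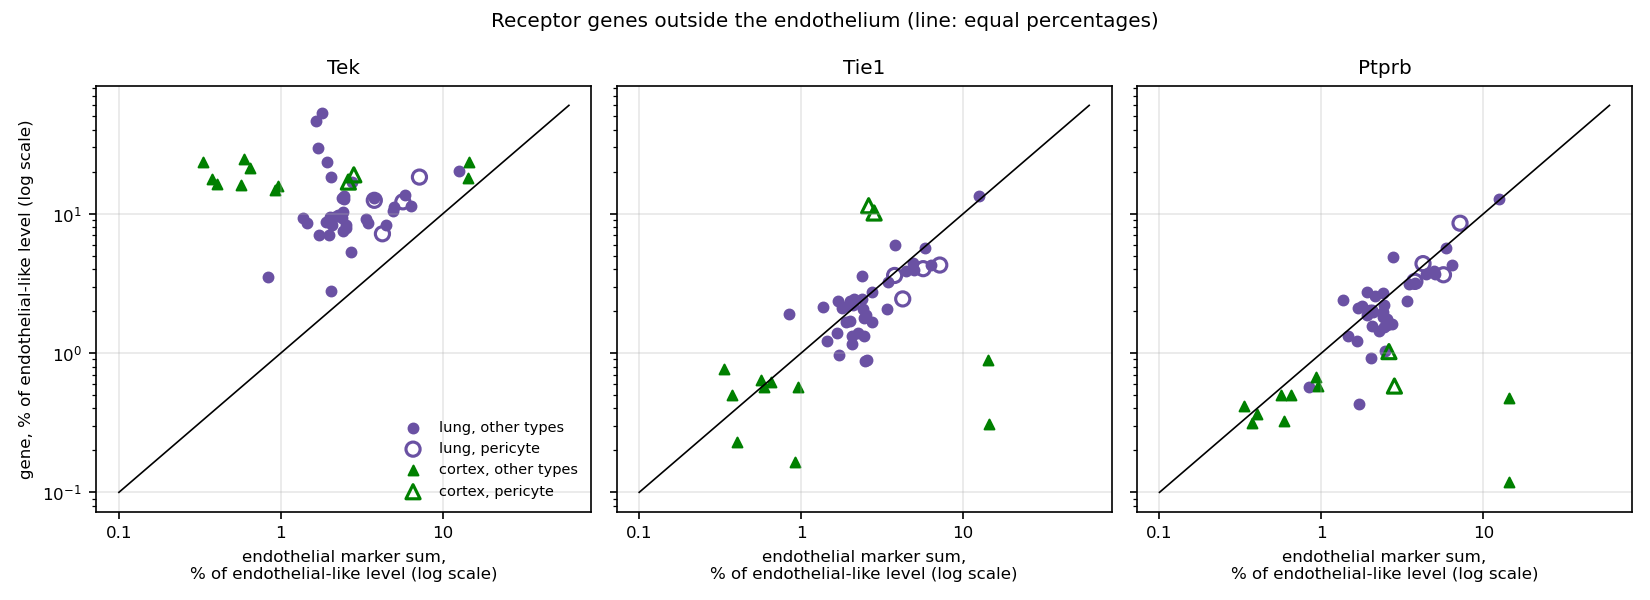
Level of Tek, Tie1 and Ptprb in cell types other than endothelium against the summed level of the endothelial markers in the same cells, both as percent of the endothelial level of the library, on log axes, for 39 lung and 12 cortex combinations of type and library. The line marks equal percentages, and open symbols are pericytes. Tie1 and Ptprb scatter around it or below, except Tie1 in cortical pericytes (82.5 and 80.9 CPM), and Tek lies above it with medians of 9.77% in the lung and 17.9% in the cortex.

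Other genes of the pathway were taken from a list of 24 (other ligands, integrin receptors of angiopoietins, adaptors of TIE2, the PI3K, AKT and FOXO1 branch, VE-cadherin, proteases and von Willebrand factor). In endothelial cells of the Bdnf pair 0 of 21 with enough UMIs were past 1.5-fold, and their median log2 ratio was -0.03 against -0.02 over all genes. In the Hgf pair 1 of 19 was higher and 2 were lower, with a median of -0.19 against -0.07, and in the Nodal pair 1 of 20 was higher, with -0.10 against -0.04. The shares of all genes past 1.5-fold in these pairs were those given above. Between the control lungs, where 25.5% of all genes were past 1.5-fold, 4 of 21 were lower and 0 higher.

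The gene counted as higher in the Hgf and in the Nodal pair was Itgb3, an integrin subunit, with 29.4 against 14.6 CPM (1.01, 0.76 to 1.26) in the Hgf and 3.91 against 1.20 CPM (1.70, 0.76 to 2.77, from 63 and 11 UMIs) in the Nodal pair, where it reached 50 UMIs only through the iPCKO library. Between the control lungs it was lower in the Hgf control, -0.65 (-0.90 to -0.41). Those lower in the Hgf pair were Cdh5, the gene of VE-cadherin and itself an endothelial marker, with 1160 against 1901 CPM (-0.71), and Adam17, a sheddase, with 60.9 against 106 CPM (-0.81). Cdh5 was also lower in the Bdnf pair, -0.32 (-0.34 to -0.30), and slightly in the Nodal pair, -0.08 (-0.14 to -0.02). Foxo1, a transcription factor that AKT downstream of TIE2 keeps out of the nucleus, had ratios of -0.20, -0.12 and -0.24. Angpt4, Dok2 and Lect2 had too few endothelial UMIs in any comparison. Svep1, an extracellular protein that binds TIE1, was highest in matrix fibroblasts of the lung, at 341, 256, 185 and 201 CPM, and in fibroblasts of the cortex, at 32.0 and 29.2 CPM.

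Likeness of pattern was described by Pearson's r of log2(CPM + 1) over the 39 combinations of cell type and control library, among 16869 genes. These points share libraries and depth, and subtypes of the endothelium are included. Closest to Angpt1 were Ednra (0.88), C1s1 (0.87) and Pla2r1 (0.86), and closest to Angpt2 Lama4 (0.86), Smtn (0.85) and Loxl2 (0.76). Tek was closest to Fam124b (0.88), Edn1 (0.87) and Klhl5 (0.86), Tie1 to Egfl7 (0.97), Robo4 (0.96) and Cldn5 (0.95), and Ptprb to Cyyr1 (0.97), Clec14a (0.95) and Adgrl4 (0.94). Egfl7, Cldn5 and Clec14a are markers by which endothelial cells were assigned. Among the members, Tie1 and Ptprb were most alike (0.91), followed by Tek and Ptprb (0.82) and Tek and Tie1 (0.80), while Angpt1 and Angpt2 had 0.22 and Angpt1 and Tie1 -0.50.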

How the data were processed

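Single-cell transcriptomes (BD Rhapsody) of lung and cortex were used as deposited. According to their methods, the authors counted UMIs with STARsolo (STAR 2.7.10a) on GRCm39 with Gencode annotation, sharing multi-mapping reads by expectation maximization, and deposited estimated counts for every barcode combination without a cell filter. These expected counts were not normalized, and 8.50 to 9.95% of entries are fractional. Since free RNA is deposited with the cells, low levels can include it.

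Here, barcodes with at least 1500 UMIs (700 in the Hgf libraries) were kept, except those whose mitochondrial share exceeded the library median by more than 3 median absolute deviations and those beyond the 99.5 percentile of UMIs. Cells were assigned by scores over 37 marker sets: the best set had to reach 0.2 of the mean of the 100 top cells with at least 3 markers found, no other lineage 0.6 and no other type of the lineage 0.8 of it. Scrublet (scanpy 1.11.5) called 0.70 to 7.75% of cells doublets, which were removed as an alternative only. CPM and intervals were computed with scipy 1.17.1 in Python 3.11.15. Genes with at least 50 UMIs over both libraries were compared, and with 1 library per group no p-value was computed. Alternatives were stricter minimum and gates, Leiden clusters (resolution 3), rounding, each cell's own CPM, median-of-ratios scaling and thinning. The members, the marker and pathway lists and the rule for genes of like pattern (3 per member, at least 200 UMIs, types of at least 50 cells) were chosen with earlier results of these data known. The ratios and their intervals were tested on Poisson counts with known folds, drawn from the pooled endothelial cells. Filtering, cell assignment, thinning and differences between mice were not simulated. Protein sequences and the other promoters were not used here.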

Additional observations from a re-analysis of the deposited data

Results flagged for a closer look

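Angpt2 in endothelial cells had log2 ratios of opposite sign in the Nodal cortex pair (0.30) and the Bdnf lung pair (-0.48), with intervals that did not contain 0, and this difference between pairs was not tested. The Bdnf value was 0.042 with the mean of each cell's own CPM and 0.48 in gCap alone, so the opposite sign depends on the summary. Ptprb in endothelial cells was lower in the Nodal pair (-0.28) and slightly higher in the Bdnf (0.019) and Hgf (0.11) pairs, and in venous cells it was lower in the Nodal (-0.44) and slightly higher in the Hgf pair (0.050). These differences were not tested either, and organ, age, marker sets and deleted gene cannot be told apart in them.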

How the results depend on the processing

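No paired analysis was possible because each group is 1 library and no result comes from a test. For the same reason no library could be left out. Of the values that answer a comparison, 198 stayed within the 95% interval of the reported value under the alternatives, 54 left it and 5 changed sign from a value whose interval did not contain 0, and of the values by subtype or cell type 958 stayed and 264 left it. The values that changed are log2 ratios unless stated, and the cause was not tested.

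With a minimum of 3000 UMIs (1400 in the Hgf libraries), the Bdnf pair gave -0.76 for endothelial Angpt2, -0.35 for Tek, -0.44 for Tie1, -0.041 for Ptprb (sign changed) and -0.54 for Angpt1 in pericytes. Endothelial lung over cortex became 1.16 (Bdnf) and 0.81 (Hgf) for Tek, 0.34 for Tie1 (Hgf) and 1.29 for Ptprb (Hgf).

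With the stricter gate, endothelial Angpt2 had -0.21 in the Bdnf and 0.42 in the Hgf pair. Lung over cortex in pericytes became 4.25 for Angpt1 (Bdnf) and -3.12 and -3.77 for Tie1 (Bdnf, Hgf), and in endothelial cells -2.31 and -1.28 for Angpt2 and 1.73 and 1.39 for Ptprb (Bdnf, Hgf).

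With Leiden clusters, the Bdnf pair gave -0.30 for endothelial Tek, -0.45 for Tie1 and -0.060 for Ptprb (sign changed), and the Hgf pair 0.073 for Ptprb. Angpt1 in pericytes had -0.96 in the Bdnf and 1.49 in the Hgf pair. Lung over cortex in pericytes became 3.54 and 2.46 for Angpt1, -1.23 and -0.23 for Angpt2 and -2.79 and 2.23 for Tie1 (Bdnf, Hgf), with changed sign for both values of Angpt2 (the Bdnf one from 0.084, whose interval contained 0) and for the Hgf value of Tie1. The cluster named pericyte in the Hgf control held 131 cells, of which 67 were pericytes, 50 mixed-lineage cells and 11 endothelial cells by the gates, and that of the Bdnf iPCKO 168 cells, of which 94 were pericytes and 46 mixed-lineage cells. In endothelial cells the Bdnf values became 1.21 for Tek, -0.13 for Tie1 and 1.60 for Ptprb.

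With the mean of each cell's own CPM, endothelial Angpt2 in the Bdnf pair had 0.042 (sign changed), Tie1 -0.36 in the Hgf pair and Ptprb 0.033 in the Hgf and -0.24 in the Nodal pair. Lung over cortex became -2.40 for Angpt2 (Bdnf), 1.43 and 1.11 for Tek, 0.45 for Tie1 (Hgf) and 1.61 and 1.39 for Ptprb.

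Median-of-ratios scaling gave -0.32 for Tek, -0.24 for Tie1 and 0.18 for Ptprb in the Hgf pair, and 0.037 (Bdnf) and -0.24 (Nodal) for Ptprb. Lung over cortex became -2.13 and -1.26 for Angpt2, 1.06 and 0.67 for Tek, -0.28 and 0.16 for Tie1 and 1.47 and 1.10 for Ptprb (Bdnf, Hgf). Tek and Tie1 were lower in the endothelium of all 3 iPCKO libraries under every alternative that was run on them.

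The share of genes past 1.5-fold in endothelial cells was 6.55% (Bdnf) and 2.88% (Nodal) at a minimum of 200 UMIs and 13.3% (Nodal) at 20. Depth limits Angpt2 in pericytes and subtypes and all rare lung types of the Hgf libraries.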

Other observations

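Angpt4, a further ligand of TIE2, was a transcript of adventitial fibroblasts in 3 of the 4 lung libraries, at 160.4 CPM in the Bdnf control, 62.0 CPM in the Bdnf iPCKO and 37.6 CPM in the Hgf control. In the Hgf iPCKO its highest level was in smooth muscle cells, at 38.7 CPM, and in the cortex no type exceeded 1.34 CPM. Immune cells that escaped depletion were too few in the Bdnf libraries to be compared (38 and 21), where Angpt1 had 259 and 264 CPM. Among the 71 immune cells of each Hgf library, Angpt1 had 40.1 CPM in control and 13.6 CPM in iPCKO.

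Vwf, the gene of von Willebrand factor, which shares its storage granules with angiopoietin-2, had 829.5, 709, 719, 698, 259 and 323 CPM in endothelial cells.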
